A study of Mus musculus with 12 samples.

Results

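Kupffer cell identity genes were followed through mouse livers on a Western diet or chow, with or without a vector meant to silence Aatf. They are 10 genes picked by symbol: the resident Kupffer cell markers Cd163, Timd4, Marco, Clec4f, Vsig4 and Folr2, and the general tissue macrophage genes Csf1r, Adgre1, C1qa and C1qb. All 10 are listed in the gene table, which holds 50499 genes. Of these, 11934 genes had enough counts to be tested, among them 9 of the 10, and Folr2 was listed at 0 in every library. The 12 libraries fall into 4 groups of 3, all from whole liver of wild-type male C57Bl/6NCrl mice (strain C57bl/6 in another label) that started their diet at 6 weeks of age. Western siAATF livers had a Western diet with sugar water and AAV8-TBG-siAATF, and Western null livers the same diet with AAV8-TBG-Null. Chow siAATF livers had chow with normal water and AAV8-TBG-siAATF, and chow null livers chow with AAV8-TBG-Null. Virus was given by tail vein after 12 weeks of diet and the livers were taken 12 weeks after that, so every mouse, controls included, carried AAV8 particles. TBG is a promoter of hepatocytes, so the vector was built to act in hepatocytes and not in the macrophages whose genes are described here.

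Kupffer cells are the macrophages that live in the liver sinusoids. They are seeded before birth, renew themselves locally, and clear bacteria, dying cells and worn-out red cells from portal blood. Signals from sinusoidal endothelium, stellate cells and hepatocytes keep up their identity programme, in which PU.1, MAF family factors, LXR alpha and the Notch factor RBPJ take part. When resident cells die, as is known from steatohepatitis in mice, blood monocytes enter the niche and take on many Kupffer cell genes, with Timd4 among the slowest to appear. Clec4f marks Kupffer cells whatever their origin, and Timd4 mainly those of embryonic origin. Both are narrower markers than Csf1r, Adgre1 or C1q, which most tissue macrophages express.

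Promoter windows are shown for 4 genes that stand for the contrasting patterns described below: Cd163, Timd4 and Marco, whose lowest group mean was in Western null livers, and C1qb, whose highest was there. Each runs from 250 bases before to 50 bases after the annotated start, is written 5′ to 3′ on the gene's strand, and comes from RefSeq on the build GRCm38.p6. Capitals mark a match to one of the motifs searched on both strands.
Cd163, chr6:124304401-124304700, plus strand: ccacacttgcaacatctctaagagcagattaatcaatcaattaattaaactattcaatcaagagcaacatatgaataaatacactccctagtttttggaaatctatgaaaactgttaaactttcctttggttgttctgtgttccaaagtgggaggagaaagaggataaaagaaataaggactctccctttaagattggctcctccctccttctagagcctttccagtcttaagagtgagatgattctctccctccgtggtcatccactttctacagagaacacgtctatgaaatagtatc
Timd4, chr11:46810549-46810848, plus strand: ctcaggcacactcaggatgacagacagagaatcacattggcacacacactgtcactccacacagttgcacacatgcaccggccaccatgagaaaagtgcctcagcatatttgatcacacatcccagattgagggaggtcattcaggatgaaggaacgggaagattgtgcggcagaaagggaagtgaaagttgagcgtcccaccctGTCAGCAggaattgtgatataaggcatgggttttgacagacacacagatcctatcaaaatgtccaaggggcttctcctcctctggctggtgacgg
Marco, chr1:120504975-120505274, minus strand: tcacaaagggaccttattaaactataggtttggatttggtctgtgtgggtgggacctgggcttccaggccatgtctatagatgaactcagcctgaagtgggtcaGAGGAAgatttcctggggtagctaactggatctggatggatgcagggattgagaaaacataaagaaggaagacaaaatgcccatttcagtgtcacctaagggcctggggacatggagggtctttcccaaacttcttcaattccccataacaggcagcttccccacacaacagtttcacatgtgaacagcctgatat
C1qb, chr4:136886151-136886450, minus strand: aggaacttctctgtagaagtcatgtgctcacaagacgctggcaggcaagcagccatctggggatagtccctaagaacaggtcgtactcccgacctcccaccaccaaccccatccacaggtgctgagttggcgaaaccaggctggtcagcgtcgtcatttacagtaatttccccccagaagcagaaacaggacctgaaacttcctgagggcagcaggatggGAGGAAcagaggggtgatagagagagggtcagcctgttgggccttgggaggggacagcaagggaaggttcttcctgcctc
The Timd4 window held the MAF recognition core TGCTGAC on the other strand, so its capitals read as the reverse complement. The Marco and C1qb windows each held 1 copy of the PU.1 core GAGGAA, and the Vsig4 window held 2. Among 32851 promoter windows of 300 bases, 28.3% held GAGGAA and 4.67% held TGCTGAC. No window of these genes held the RBPJ motif GTGGGAA, found in 6.38% of windows, or the LXR element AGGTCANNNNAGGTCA, found in 0.0152%. Windows were at hand for 7 of the 10 genes, and those of Cd163, Clec4f and Folr2 held none of the motifs. A match describes letters in the window and shows no binding.

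On GRCm39, the build of the counts, the members lie on several chromosomes, and reads were counted over the whole span of a gene, introns included. Cd163 spans chr6:124281596-124307488 and Clec4f chr6:83621524-83633098, Timd4 spans chr11:46701613-46735160, Marco chr1:120402267-120432753, Vsig4 chrX:95290807-95337044 and Folr2 chr7:101489195-101506397. Csf1r spans chr18:61238644-61264211 and Adgre1 chr17:57665581-57790529. C1qa at chr4:136623227-136626155 and C1qb at chr4:136607437-136613511 both lie on the minus strand with C1qc, the gene of the third C1q chain, between them at chr4:136617112-136620242, and no other gene overlaps C1qa or C1qb.

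Libraries held between 1646853 and 13469819 counts, of which 0.871% to 50.8% fell on Rn18s-rs5, a gene of 18S ribosomal RNA. Its share was over 25% in replicate 2 of the Western siAATF libraries, replicate 1 of the chow siAATF libraries, and replicates 1 and 2 of the chow null libraries. Levels are given as counts scaled by TMM library size (CPM), and a floor of 3 counts equals 0.185 to 1.69 CPM. They are set side by side only within a gene, since counts were not scaled by length. Aatf itself averaged 27.5 ± 0.599 CPM in libraries labelled Western siAATF and 26.3 ± 4.60 CPM in Western null libraries (SD, n = 3 each), with a log2 fold change of 0.06 ± 0.25 (edgeR adjusted p = 0.953). It averaged 34.8 ± 8.86 CPM in libraries labelled chow siAATF and 31.6 ± 5.13 CPM in chow null libraries (SD, n = 3 each; log2 fold change 0.11 ± 0.24, edgeR adjusted p = 1). The targeted gene was thus not lower in either siAATF group, so a direction given here for the vector follows the label alone. The liver label was checked against 11 hepatocyte genes, which summed to 59432 to 123400 CPM per library, none of them at 0 in a group. Replicate 3 of the Western siAATF libraries stood apart from replicates 1 and 2: the summed level of 11 neutrophil genes was 156, 168 and 3.96 CPM in replicates 1 to 3. That library was also lowest of the 3 for 14 recruited monocyte genes (88.0, 87.1 and 27.7 CPM) and 20 other general macrophage genes (887, 851 and 429 CPM). For 14 lipid-associated macrophage genes it was highest (1172, 977 and 1519 CPM). The labels do not say that each replicate is a separate mouse, and the p-values reflect no more than the scatter among these libraries, which may be technical.

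On the Western diet with the null vector, Cd163 and Timd4 fell relative to chow with the null vector, 4.88-fold and 4.97-fold, while Csf1r, C1qa and C1qb rose 2.09-fold, 2.35-fold and 3.22-fold. The receptors that mark resident Kupffer cells did not move as 1 block: Marco had a lower mean but varied too much between libraries to pass the test, Vsig4 stayed near its chow level, and Clec4f was 1.79-fold higher without passing. The 5 called genes are 55.6% of the 9 tested, against 13.2% called among all genes tested (6.44% higher and 6.77% lower). In whole liver, fewer cells of a type and less RNA per cell cannot be told apart, so a lower Timd4 level may stand for either.

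Cd163 is the scavenger receptor that takes up haemoglobin bound to haptoglobin. Its level was 1.97, 3.75 and 1.98 CPM in Western null libraries 1 to 3, against 10.4, 20.9 and 7.57 CPM in chow null libraries 1 to 3. All 3 Western null values lay below all 3 chow null values, and the Western null values rested on 4, 11 and 22 reads. The log2 fold change was -2.29 ± 0.58 (SE), with a Benjamini-Hochberg adjusted p of 0.0160 by edgeR's quasi-likelihood test, the source of each edgeR p given here. The predicted gene Gm52877 shares 37.0% of the span of Cd163 on the other strand, so part of its reads may be missing in every library.

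Timd4 encodes TIM-4, which binds phosphatidylserine on dying cells and is a marker of Kupffer cells of embryonic origin. It stood at 2.96, 1.36 and 0.988 CPM in Western null libraries, from 6, 4 and 11 reads, against 13.8, 2.26 and 4.79 CPM in chow null libraries. The groups overlapped, because chow null replicate 2, with 4 reads, lay below Western null replicate 1. The log2 fold change was -2.31 ± 0.63 (edgeR adjusted p = 0.0234), and it was -1.36 without chow null replicate 1 (edgeR adjusted p = 0.182).

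Marco, a class A scavenger receptor that binds bacteria and particles, had 2.96, 7.84 and 2.42 CPM in Western null libraries, against 79.9, 18.1 and 7.14 CPM in chow null libraries. Western null replicate 2 lay above chow null replicate 3, and the highest chow null value was 11.2 times the lowest. The log2 fold change of -3.12 ± 1.38 did not pass (edgeR adjusted p = 0.177, with a 95% interval from -6.25 to 0.01). It moved with single libraries, to -1.47 without chow null replicate 1 and to -3.77 without Western null replicate 2. The square root of the fitted dispersion of Marco was 0.923, against 0.279 to 0.429 for the other 8 tested members and a median of 0.270 over all genes.

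Clec4f, a galactose-binding lectin that in the mouse is found on Kupffer cells and few other cells, had 120, 224 and 93.1 CPM in Western null libraries, against 67.0, 116 and 62.5 CPM in chow null libraries. The groups overlapped, and the log2 fold change was 0.84 ± 0.38 (edgeR adjusted p = 0.152). Vsig4, the complement receptor CRIg that binds bacteria coated with C3b, had 11.4, 15.3 and 10.8 CPM in Western null libraries, against 17.7, 7.34 and 8.53 CPM in chow null libraries. Its Western null values lay within the range of the chow null ones, with a log2 fold change of 0.10 ± 0.39 and a 95% interval from -0.73 to 0.92 (edgeR adjusted p = 0.897). Folr2, folate receptor beta, had 0 reads in all 12 libraries. The predicted gene Gm10602 shares 43.6% of its span on the other strand, and whether its transcripts were lost in counting was not tested.

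The general macrophage genes all had higher means on the Western diet, and 3 of the 4 passed the test. Csf1r, the receptor for the growth factor on which macrophages depend, had 104, 152 and 86.1 CPM in Western null libraries, against 63.3, 54.8 and 45.0 CPM in chow null libraries. C1qa had 94.3, 106 and 58.0 CPM in Western null libraries, against 31.5, 47.4 and 32.0 CPM in chow null libraries. C1qb, which like C1qa encodes a chain of C1q, the recognition part of the classical complement pathway, had 117, 196 and 114 CPM in Western null libraries, against 37.7, 64.4 and 32.9 CPM in chow null libraries. For these 3 genes every Western null library exceeded every chow null library. Their log2 fold changes were 1.07 ± 0.34 for Csf1r (edgeR adjusted p = 0.0464), 1.23 ± 0.32 for C1qa (edgeR adjusted p = 0.0183) and 1.69 ± 0.41 for C1qb (edgeR adjusted p = 0.0147). Adgre1, which encodes the surface antigen F4/80, had 28.1, 40.5 and 22.5 CPM in Western null libraries, against 27.2, 7.91 and 12.9 CPM in chow null libraries. Its groups overlapped through chow null replicate 1, and its log2 fold change of 0.85 ± 0.39 did not pass (edgeR adjusted p = 0.159), though it was 1.45 without that library (edgeR adjusted p = 0.0302).

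The Western null and chow null groups did not overlap for 4 of 9 members, against 34.7% of all genes tested: Cd163 was lower, and Csf1r, C1qa and C1qb were higher. None of the 5 calls held through every library left out in turn. The Cd163 call was lost without Western null replicate 1 (log2 fold change -2.19, edgeR adjusted p = 0.0612) or replicate 3 (-2.04, edgeR adjusted p = 0.0841), and the Timd4 call also without Western null replicate 2 (-2.25, edgeR adjusted p = 0.0834) or replicate 3 (-1.85, edgeR adjusted p = 0.130). The C1qa call was lost without Western null replicate 1 (1.17, edgeR adjusted p = 0.0628) or 2 (1.05, edgeR adjusted p = 0.0864), or chow null replicate 1 (1.13, edgeR adjusted p = 0.0704) or 3 (1.12, edgeR adjusted p = 0.0887). The C1qb call was lost without Western null replicate 2 (1.39, edgeR adjusted p = 0.0699), or chow null replicate 1 (1.58, edgeR adjusted p = 0.0692) or 3 (1.49, edgeR adjusted p = 0.0795). The Csf1r call was the least firm: it was lost without any 1 of the 6 libraries compared, at log2 fold changes from 0.807 to 1.23 (edgeR adjusted p from 0.0535 to 0.201), and without chow siAATF replicate 1 (edgeR adjusted p = 0.0567) or 2 (edgeR adjusted p = 0.0503), which belong to neither group compared. Without the 4 libraries with over 25% of counts from 18S RNA, which leaves 1 chow null library assumed to vary like the others, Marco stood at -0.805, Cd163 at -1.59 and Timd4 at -1.64, and none of the 9 was called.

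**Figure D1:**
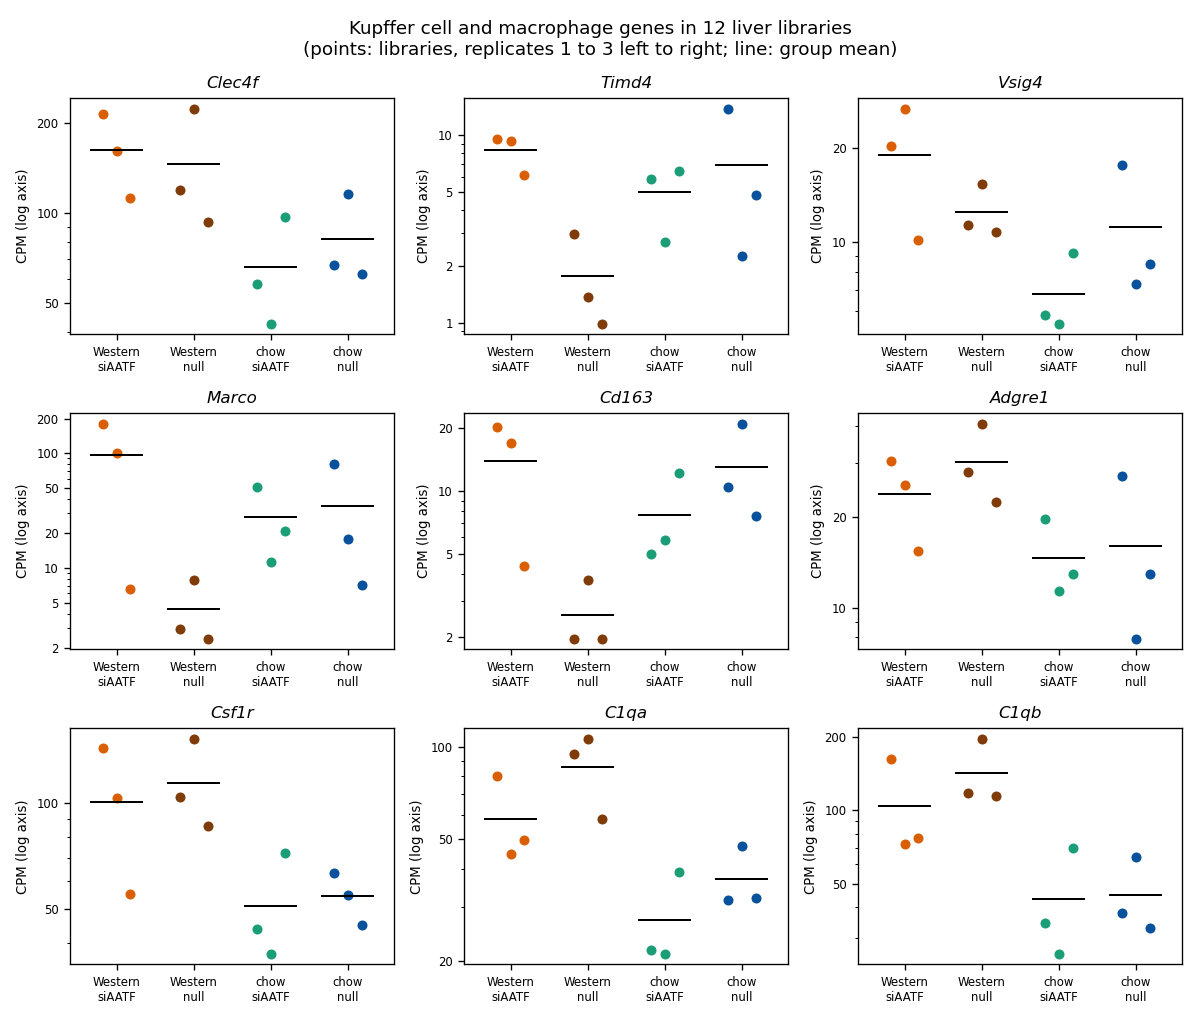
CPM of the 9 counted Kupffer cell and macrophage genes (log axis) in each of the 12 libraries, by group; points are libraries and lines are group means. Cd163, Timd4 and Marco have their lowest means in Western null libraries (2.57, 1.77 and 4.41 CPM), while Csf1r, C1qa and C1qb have their highest there (114, 86.1 and 142 CPM).

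With the siAATF vector on the Western diet, Cd163 rose 5.74-fold over the null vector on the same diet, to a mean of 13.8 ± 8.33 CPM in Western siAATF libraries, against 2.57 ± 1.02 CPM in Western null libraries (SD, n = 3 each). Timd4 and Marco had means 5.59-fold and 23.4-fold higher that did not pass the test. Csf1r, Adgre1, C1qa and C1qb had means 1.13-fold to 1.47-fold lower, none of them past the test. The 1 called gene is 11.1% of the 9 tested, against 0.871% of all genes tested (0.310% higher).

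Cd163 had 20.1, 17.0 and 4.40 CPM in Western siAATF libraries 1 to 3, against the 1.97, 3.75 and 1.98 CPM of Western null libraries. Every Western siAATF library lay above every Western null library, though replicate 3, from 10 reads, only just. The log2 fold change was 2.52 ± 0.57 (edgeR adjusted p = 0.0485). This call sits at the threshold: 17 of 23 alternatives lost it, with log2 fold changes between 2.18 and 2.89 and adjusted p between 2.39e-06 and 0.256. Leaving out Western siAATF replicate 1 (edgeR adjusted p = 0.177) or 2 (0.128), Western null replicate 1 (0.241), 2 (0.10) or 3 (0.256), chow siAATF replicate 1 (0.0595) or 2 (0.0681), or chow null replicate 1 (0.0593) or 3 (0.0628) ended the call by edgeR, while leaving out Western siAATF replicate 3 gave 2.89 (edgeR adjusted p = 0.00144).

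Timd4 had 9.51, 9.30 and 6.16 CPM in Western siAATF libraries, against 2.96, 1.36 and 0.988 CPM in Western null libraries. The groups did not overlap, and replicate 3 of the Western siAATF libraries, which stood apart in other genes, differed less from replicates 1 and 2 here. The log2 fold change was 2.48 ± 0.64 (edgeR adjusted p = 0.0933). It passed without Western siAATF replicate 3 (2.64, edgeR adjusted p = 0.0274), without chow null replicate 1 (2.47, edgeR adjusted p = 0.0411) and in DESeq2 (2.41, adjusted p = 0.0145). Cd163 and Timd4 were the 2 of 9 members whose Western siAATF and Western null groups did not overlap, against 15.6% of all genes tested.

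Marco had 180, 99.9 and 6.60 CPM in Western siAATF libraries, against 2.96, 7.84 and 2.42 CPM in Western null libraries. Replicates 1 and 2 were high, and replicate 3 lay inside the Western null range. The log2 fold change of 4.55 ± 1.41 did not pass by edgeR (adjusted p = 0.266; 5.09 and adjusted p = 0.0751 without Western siAATF replicate 3) and passed in DESeq2 (4.43, adjusted p = 0.00921). The same pair of libraries was high in neutrophil genes: the 11 listed genes summed to 156, 168 and 3.96 CPM in Western siAATF libraries, against 7.41, 14.7 and 6.56 CPM in Western null libraries. Of these, S100a9, a subunit of the neutrophil protein calprotectin, had 53.3, 88.5 and 1.76 CPM in Western siAATF libraries, against 1.97, 2.73 and 1.26 CPM in Western null libraries. Ly6g, Mmp8 and Retnlg, also on that list, were at 0 in all Western null libraries. They had only 4, 6 and 21 reads over all 12 libraries and were not tested, so that 0 shows little. In each chow group, by contrast, the library with the highest Marco level had the lowest neutrophil sum. These were chow siAATF replicate 1 (Marco 50.8 CPM, neutrophil genes 1.06 CPM) and chow null replicate 1 (79.9 and 7.88 CPM). In every group the library with the lowest share of 18S RNA also had the lowest Marco level. The part of neutrophil genes or of 18S content in the Marco and Cd163 levels was not tested.

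Clec4f had 215, 162 and 112 CPM in Western siAATF libraries and Vsig4 had 20.3, 26.8 and 10.1 CPM there. Both overlapped the Western null values, with log2 fold changes of 0.17 ± 0.37 (95% interval -0.62 to 0.95; edgeR adjusted p = 0.907) and 0.65 ± 0.39 (95% interval -0.17 to 1.47; edgeR adjusted p = 0.609). Csf1r had 144, 103 and 55.0 CPM, Adgre1 30.5, 25.4 and 15.4 CPM, C1qa 80.3, 44.7 and 49.7 CPM and C1qb 162, 72.4 and 76.6 CPM in Western siAATF libraries, and all 4 overlapped the Western null values. Their log2 fold changes were -0.17 ± 0.33, -0.32 ± 0.39, -0.55 ± 0.31 and -0.45 ± 0.40. The 95% interval for Csf1r ran from -0.87 to 0.53 and that for C1qa from -1.21 to 0.11.

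**Figure D2:**
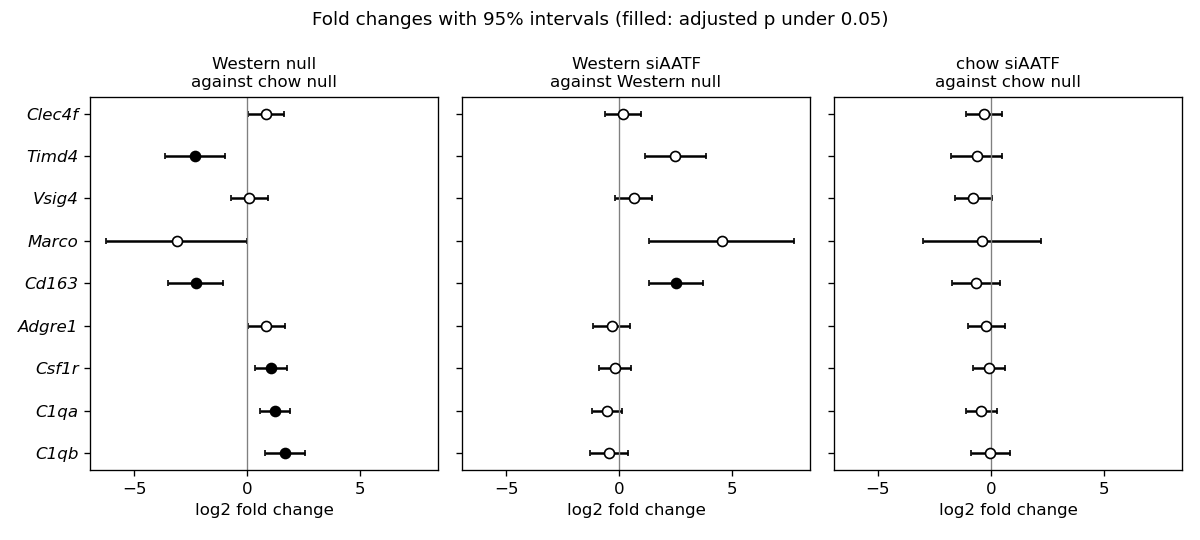
Log2 fold changes of the 9 tested genes with 95% intervals in 3 comparisons from 1 edgeR fit; filled points have an adjusted p under 0.05. Cd163 and Timd4 lie left of 0 in Western null against chow null (-2.29 and -2.31) and right of 0 in Western siAATF against Western null (2.52 and 2.48); the first 2 panels both use the Western null libraries, and the intervals of Marco are the widest.

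On chow, the 9 members overlapped between the vectors and none of them passed the test by edgeR. None had an unadjusted p under 0.05, and none passed in DESeq2; among all 11934 genes 0% were called by edgeR, with 285 genes at an unadjusted p under 0.05 and 1 gene called by DESeq2. Cd163 had 5.03, 5.85 and 12.1 CPM in chow siAATF libraries, Timd4 5.82, 2.71 and 6.48 CPM, and Marco 50.8, 11.3 and 20.9 CPM, each overlapping the chow null values. Clec4f had 57.9, 42.7 and 97.2 CPM and Vsig4 5.82, 5.48 and 9.20 CPM in chow siAATF libraries. Csf1r had 43.9, 37.4 and 72.1 CPM, Adgre1 19.6, 11.3 and 13.0 CPM, C1qa 21.7, 21.1 and 38.9 CPM and C1qb 34.4, 25.8 and 70.0 CPM there. In all 9 genes the chow siAATF and chow null values overlapped, against 8.56% of all genes whose groups did not. Log2 fold changes ran from -0.78 ± 0.39 for Vsig4 to -0.03 ± 0.41 for C1qb, and the 95% interval for Cd163 ran from -1.72 to 0.38. The Cd163 estimate of 2.52 on the Western diet lay outside it, but had its own 95% interval, from 1.31 to 3.73. The difference in the vector effect between the diets was not called for Cd163 (edgeR adjusted p = 0.113).

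Under the siAATF vector, all 9 tested members had higher means on the Western diet than on chow, without any of them passing by edgeR (1.48% of all genes called). Marco had the highest fold, averaging 95.6 ± 86.9 CPM in Western siAATF libraries and 27.7 ± 20.6 CPM in chow siAATF libraries (SD, n = 3 each; log2 fold change 1.83 ± 1.17, edgeR adjusted p = 0.515), with overlapping groups and values from 1.01 to 2.61 when 1 library was left out. Vsig4 averaged 19.1 ± 8.40 CPM in Western siAATF libraries and 6.83 ± 2.05 CPM in chow siAATF libraries (log2 fold change 1.52 ± 0.39, edgeR adjusted p = 0.0626). Clec4f averaged 163 ± 51.3 CPM in Western siAATF libraries and 65.9 ± 28.1 CPM in chow siAATF libraries (log2 fold change 1.31 ± 0.38, edgeR adjusted p = 0.0963). C1qa and C1qb gave 1.11 ± 0.32 and 1.27 ± 0.41 (edgeR adjusted p = 0.0960 and 0.137). These 4 genes were higher in all 3 Western siAATF libraries than in any chow siAATF library, against 17.6% of all genes whose groups did not overlap. Cd163, at 13.8 and 7.67 CPM in Western siAATF and chow siAATF libraries, and Timd4, at 8.33 and 5.0 CPM, had log2 fold changes of 0.91 ± 0.49 and 0.81 ± 0.54 with overlapping groups, as had Csf1r and Adgre1 with 0.99 ± 0.34 and 0.74 ± 0.39. There were 5 members at an unadjusted p under 0.05, beside 1812 of all 11934 genes, and 3 members called by DESeq2. Without Western siAATF replicate 3 edgeR called 4 members, and without chow null replicate 1 it called 1. Calls over all genes moved as well, from 177 with every library to between 34 and 737 when 1 was left out. Whether the members gained more calls than other genes was not tested.

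Whether the diet effect differed between vectors was tested as the interaction of diet and vector. No member passed (0.193% of all genes called). There were 4 members at an unadjusted p under 0.05, beside 1093 of all 11934 genes, and 1 called by DESeq2. Cd163 had a difference of log2 fold changes of 3.19 ± 0.76 (edgeR adjusted p = 0.113), Timd4 of 3.12 ± 0.83 (edgeR adjusted p = 0.165), Vsig4 of 1.43 ± 0.55 (edgeR adjusted p = 0.442) and Marco of 4.95 ± 1.81 (edgeR adjusted p = 0.464). Leaving out 1 library moved these differences to between 2.16 and 3.50 for Timd4 and between 3.30 and 5.73 for Marco, both lowest without chow null replicate 1. Without Western siAATF replicate 3, 2 members passed. Calls over all genes moved as well, from 23 with every library to between 2 and 295 when 1 was left out. Csf1r, Adgre1, C1qa and C1qb lay between -0.42 ± 0.57 and -0.08 ± 0.47. The fall of Cd163 and Timd4 on the Western diet was therefore called under the null vector, while its difference from the siAATF vector was not.

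Ordered by group mean, Cd163 was highest in Western siAATF (13.8 ± 8.33 CPM) and chow null libraries (13.0 ± 7.02 CPM), then in chow siAATF libraries (7.67 ± 3.88 CPM), and lowest in Western null libraries (2.57 ± 1.02 CPM; SD, n = 3 each). The 3 higher groups overlapped each other, and only Western null libraries lay below all others. Timd4 had the same order of means, 8.33 ± 1.88, 6.96 ± 6.08, 5.0 ± 2.01 and 1.77 ± 1.05 CPM, with overlap between each neighbouring pair. C1qb averaged 104 ± 50.7 CPM in Western siAATF libraries, 142 ± 46.4 CPM in Western null libraries, 43.4 ± 23.4 CPM in chow siAATF libraries and 45.0 ± 16.9 CPM in chow null libraries (SD, n = 3 each). Its means were thus highest on the Western diet with the null vector, with the Western groups overlapping each other and the chow groups likewise. C1qa had the same order, at 58.2 ± 19.2, 86.1 ± 25, 27.2 ± 10.1 and 37.0 ± 9.03 CPM in Western siAATF, Western null, chow siAATF and chow null libraries.

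To set resident markers against the 4 general macrophage genes, the reads of each were divided by the summed reads of Csf1r, Adgre1, C1qa and C1qb. Both came from the same library, which needs no scaling between libraries. These 4 genes do not stand for all macrophage RNA. Cd163 reads came to 0.576%, 0.758% and 0.704% of the general macrophage reads in Western null libraries, against 6.51%, 12.0% and 6.17% in chow null libraries. In Western siAATF libraries they came to 4.83%, 6.93% and 2.24%, and in chow siAATF libraries to 4.20%, 6.12% and 6.25%. Western null libraries thus lay apart from the other 9, which overlapped each other. Timd4 reads were 0.863%, 0.276% and 0.352% in Western null libraries, against 8.66%, 1.29% and 3.90% in chow null libraries, and Marco reads averaged 1.10% ± 0.417 in Western null libraries, against 22.1% ± 24.3 in chow null libraries (SD, n = 3 each). Relative to the general macrophage reads, Vsig4 was lower in all 3 Western null libraries as well, at 3.42% ± 0.380, against 7.41% ± 3.46 in chow null libraries (SD, n = 3 each). Clec4f averaged 37.8% ± 6.49 in Western null libraries and 53.2% ± 12.5 in chow null libraries (SD, n = 3 each), and overlapped.

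Since the denominator itself rose with the diet, most genes fell relative to it: 67.5% of 11044 genes with counts in every library were lower in all 3 Western null libraries, with a median log2 difference of -1.28. Against that median, only 0.543% of genes lay below Marco (-3.77), 0.761% below Cd163 (-3.54) and 1.62% below Timd4 (-3.01), while Vsig4 (-1.01) and Clec4f (-0.48) lay above it. Between Western siAATF and Western null libraries all 5 resident markers were higher in all 3 libraries relative to the general macrophage reads, as were 6.51% of genes. The log2 differences were 4.10 for Marco, 2.78 for Timd4, 2.64 for Cd163, 0.93 for Vsig4 and 0.63 for Clec4f, beside a median of 0.43 for all genes. Leaving out 1 library moved the Marco difference to between 3.47 (without Western siAATF replicate 1) and 5.31 (without Western siAATF replicate 3) and the Timd4 difference to between 2.45 and 3.27. In Western null against chow null libraries it gave -4.43 to -2.88 for Marco and -3.73 to -2.36 for Timd4, both smallest in size without chow null replicate 1, and -3.71 to -3.23 for Cd163. With Csf1r, Adgre1 or C1qb alone as the denominator, or 20 other macrophage genes, the Western siAATF against Western null differences stayed within 2.48 to 2.74 for Cd163 and 2.61 to 2.88 for Timd4. Measured in this way, 9 of 18 other Kupffer cell genes with counts in every library were lower in all 3 Western null libraries than in any chow null library (median -0.87), as were 3 of 20 other general macrophage genes (median 0.29). Between Western siAATF and Western null libraries 1 of the 18 was higher in all 3 and none of the 20 (medians 0.37 and -0.11).

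**Figure D3:**
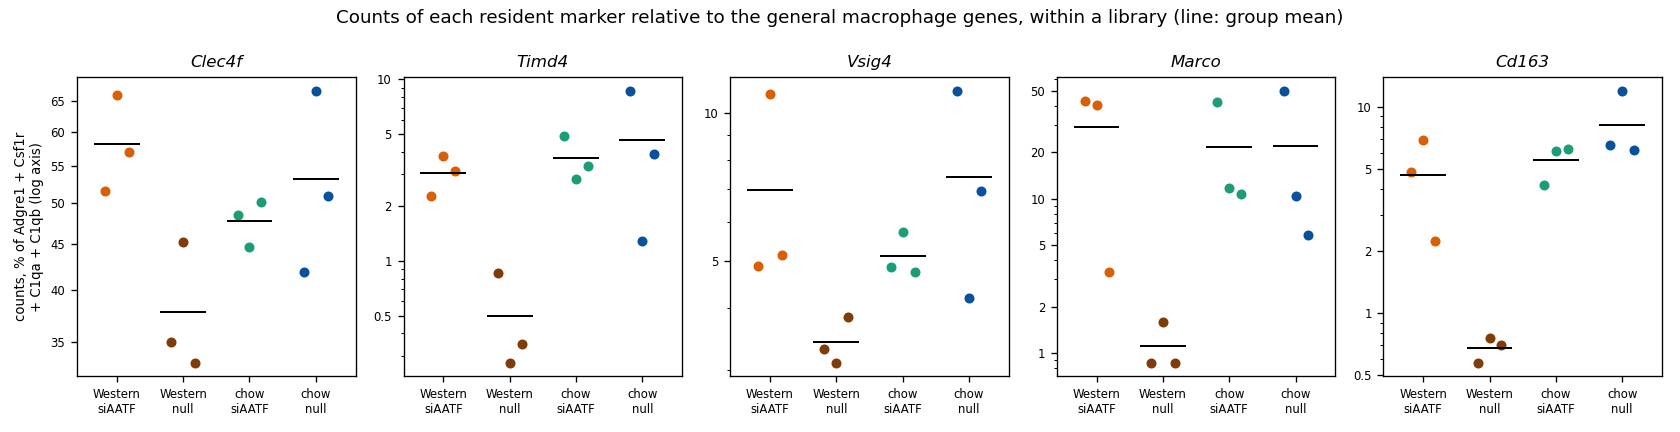
Reads of each resident marker as a percentage of the summed reads of Adgre1, Csf1r, C1qa and C1qb in the same library (log axis), by group; points are libraries and lines are group means. For Cd163 the 3 Western null points (0.576% to 0.758%) lie below the other 9 (2.24% to 12.0%).

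Members differed in how they varied together over the 12 libraries. C1qa and C1qb had a Pearson correlation of log2 CPM of 0.954, Csf1r and C1qb of 0.915, and Clec4f and Csf1r of 0.899. Marco correlated with Cd163 at 0.787 and with Timd4 at 0.772. Cd163 with Csf1r gave -0.01 and Timd4 with C1qa -0.32. After group means were removed, Clec4f with C1qb gave 0.909 and Cd163 with Csf1r 0.857. For Cd163 and Csf1r the low value across groups thus came with a high one within them. Other pairs did not do so: Timd4 with Cd163 went from 0.587 to -0.01. Marco with Timd4 went to 0.525, Marco with Cd163 to 0.626 and Timd4 with C1qa to 0.07. These are descriptions over libraries that share depth and 18S content.

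Other genes whose level over the 12 libraries was most like each member were sought among 9134 genes. Those of Csf1r were Spi1, which encodes PU.1 (r = 0.978), Nckap1l (0.961) and the leukocyte integrin chain Itgb2 (0.957). Those of C1qb were led by Axl, a receptor for dying cells (0.966), and those of C1qa by Axl (0.952), C1qc, which encodes the third C1q chain (0.939), and Irf8 (0.938). For Clec4f the first was the integrin chain Itgal (0.938), and for Vsig4 the genes were Tpt1 (0.937), the mannose receptor Mrc1 (0.923) and Apbb1ip (0.910). The genes most like Cd163 were St6gal1 (0.926), the fibrinogen chain Fga (0.912) and Rbm10 (0.901), and Fga is made by hepatocytes. Marco was followed by Moxd1 (0.912), Gas5 (0.908) and Itih3 (0.893), Timd4 by Msh6 (0.932), Utp11 (0.877) and Mup14 (0.855), whose reads are uncertain because its copies are near-identical, and Adgre1 by Lyrm2 (0.928), Mrpl50 (0.918) and Snrpe (0.914).

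Further Kupffer cell and macrophage genes gave the setting. Of 22 other Kupffer cell genes 20 were tested, and Cd5l and Clec1b were listed at 0, each lying inside another gene. In Western null against chow null libraries 2 rose, Cd207, encoding langerin (log2 fold change 3.41 ± 0.77, edgeR adjusted p = 0.0086), and Lgmn, a lysosomal protease (1.30 ± 0.28, edgeR adjusted p = 0.0070), and 1 fell, the complement gene C6 (-1.72 ± 0.49, edgeR adjusted p = 0.0348), which hepatocytes also make. These 3 are 15.0% of the 20, near the 13.2% called among all genes. The median of the 20 was 0.55, against -0.03 over all genes and -2.29 for the 5 resident markers. That -2.29 is the value of Cd163, and the 5 were split, with Clec4f at 0.84 and Vsig4 at 0.10. Cd207 had 10.4, 14.7 and 7.27 CPM in Western null libraries, against 1.26, 0 and 1.04 CPM in chow null libraries. Of 20 other general macrophage genes 11 rose and none fell, with a median of 1.52, beside 1.15 for the 4 general members. Among them were Cd68, a lysosomal glycoprotein (2.15 ± 0.42, edgeR adjusted p = 0.0039), Tyrobp, an adaptor of activating receptors (2.43 ± 0.48, edgeR adjusted p = 0.0039), and Fcgr3, a receptor for antibody (2.26 ± 0.45, edgeR adjusted p = 0.0040).

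Between Western siAATF and Western null libraries edgeR called none of these 40 genes. At an unadjusted p under 0.05 there were 3 in each list, beside 1271 of all 11934 genes. DESeq2 called 1 Kupffer cell gene and 0 general macrophage genes. Medians were -0.04 for the other Kupffer cell genes and -0.45 for the other general macrophage genes, beside 2.48 for the 5 resident markers, -0.39 for the 4 general members and 0.06 for all genes. That 2.48 is the value of Timd4, and the 5 were split, with Clec4f at 0.17 and Vsig4 at 0.65. Cd207 had 1.99, 2.27 and 0.440 CPM in Western siAATF libraries, below all Western null libraries (log2 fold change -2.62 ± 0.75, edgeR adjusted p = 0.144). Mrc1, shared by Kupffer cells and sinusoidal endothelium, gave 0.31 ± 0.27 (edgeR adjusted p = 0.751).

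Of the signals that maintain Kupffer cells and their receptors, 14 were tested and 2 rose in Western null against chow null libraries: Gdf2, encoding the stellate cell ligand BMP9 (1.09 ± 0.29, edgeR adjusted p = 0.0209), and the TGF-beta receptor Tgfbr2 (1.02 ± 0.30, edgeR adjusted p = 0.0332). That is 14.3% of them, near the 13.2% of all genes. Csf1 was listed at 0 and lies inside another gene. In haemoglobin, haem and iron handling, a list wider than the haemoglobin uptake of Cd163, 2 of 13 genes rose. These were the biliverdin reductase Blvrb (0.71 ± 0.22, edgeR adjusted p = 0.0426) and the transferrin receptor Tfrc (1.32 ± 0.39, edgeR adjusted p = 0.0346). Hamp, encoding hepcidin, fell (-1.75 ± 0.41, edgeR adjusted p = 0.0116), so 23.1% of the list was called in all. Hmox1, which breaks down haem, had 69.9, 55.8 and 11.4 CPM in Western siAATF libraries, against 19.7, 21.8 and 19.5 CPM in Western null libraries (log2 fold change 1.19 ± 0.45, edgeR adjusted p = 0.311). Its replicate 3 was low, as for Cd163 and Marco. Around C1q, 2 of 10 early complement genes rose, C1qc (1.58 ± 0.48, edgeR adjusted p = 0.0453) and the complement receptor chain Itgax (4.51 ± 0.54, edgeR adjusted p = 9.1e-05), and C1ra, which encodes the C1r protease, fell (-0.91 ± 0.21, edgeR adjusted p = 0.0102), 30.0% of the list.

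Of 12 genes for the uptake of dying cells, where Timd4 acts, 41.7% were called in Western null against chow null libraries, beside 13.2% of all genes. All 5 called genes rose and none fell. They were Axl (81.0 ± 8.99 CPM in Western null and 31.0 ± 11.9 CPM in chow null libraries, SD, n = 3 each; edgeR adjusted p = 0.0113), the bridging protein Mfge8 (2.24 ± 0.37, edgeR adjusted p = 0.0013), Stab1 (0.93 ± 0.28, edgeR adjusted p = 0.0382), Cd36 (3.85 ± 0.55, edgeR adjusted p = 6.8e-04) and Gas6, most of whose span is shared with another gene. Between the vectors on the Western diet, edgeR called 0 genes in each of these 4 lists. For niche, iron, complement and uptake, 3, 6, 2 and 1 genes had an unadjusted p under 0.05, beside 1271 of all 11934 genes. DESeq2 called 0, 0, 2 and 0 of them.

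Markers of other cells moved beside the members, and their part in the members' values was not tested. In Western null against chow null libraries 5 of 9 recruited monocyte genes rose (median 2.7) and 11 of 14 lipid-associated macrophage genes rose (median 2.85), none falling in either list. Only 9 of the 14 listed monocyte genes were tested, and a gene could be tested through the libraries of 1 group alone. Itgax, for example, had 19.3, 15.7 and 14.1 CPM in Western null libraries, against 0.457, 1.13 and 0.784 CPM in chow null libraries. The monocyte count and median may thus partly reflect which genes were tested. The summed level of 14 monocyte genes was 84.1 to 105 CPM in Western null libraries, against 32.2 to 41.1 CPM in chow null libraries. In Western siAATF libraries it was 27.7 to 88.0 CPM, lowest in replicate 3. Of the 14 genes, 1, Ccl5, was at 0. The 14 lipid-associated genes summed to 977 to 1519 CPM in Western siAATF libraries, 1799 to 1975 CPM in Western null libraries and 614 to 758 CPM in chow null libraries, with none at 0. In Western siAATF against Western null libraries 8 of 14 lipid-associated genes fell (57.1%, beside 0.871% of all genes called) and none rose. Gpnmb was among them (-6.04 ± 0.50), while edgeR called no monocyte gene (1 at an unadjusted p under 0.05, 1 by DESeq2). Of 5 tested neutrophil genes edgeR called none in either comparison, with 0 and 3 at an unadjusted p under 0.05 and 0 and 1 by DESeq2. Over all 11934 genes, 3399 had an unadjusted p under 0.05 in Western null against chow null libraries. In Western siAATF against Western null libraries 1271 did. In Western null against chow null libraries 3 of 12 endothelial, 3 of 10 stellate cell, 4 of 6 cholangiocyte and 1 of 2 dendritic cell genes rose, and 4 of 11 hepatocyte genes fell, beside 6.44% of all genes called higher and 6.77% called lower. Between the vectors on that diet 1 cholangiocyte gene fell, Spp1, already counted among the lipid-associated genes, and 1 hepatocyte gene, Fga, rose. Lists share some genes, such as Spp1, C1qc and Itgax, so their counts are not separate. EdgeR called none of the endothelial, stellate cell or dendritic cell genes (1, 2 and 1 at an unadjusted p under 0.05, and 0, 2 and 0 by DESeq2). None of 13 lymphocyte genes had enough counts to be tested.

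**Figure D4:**
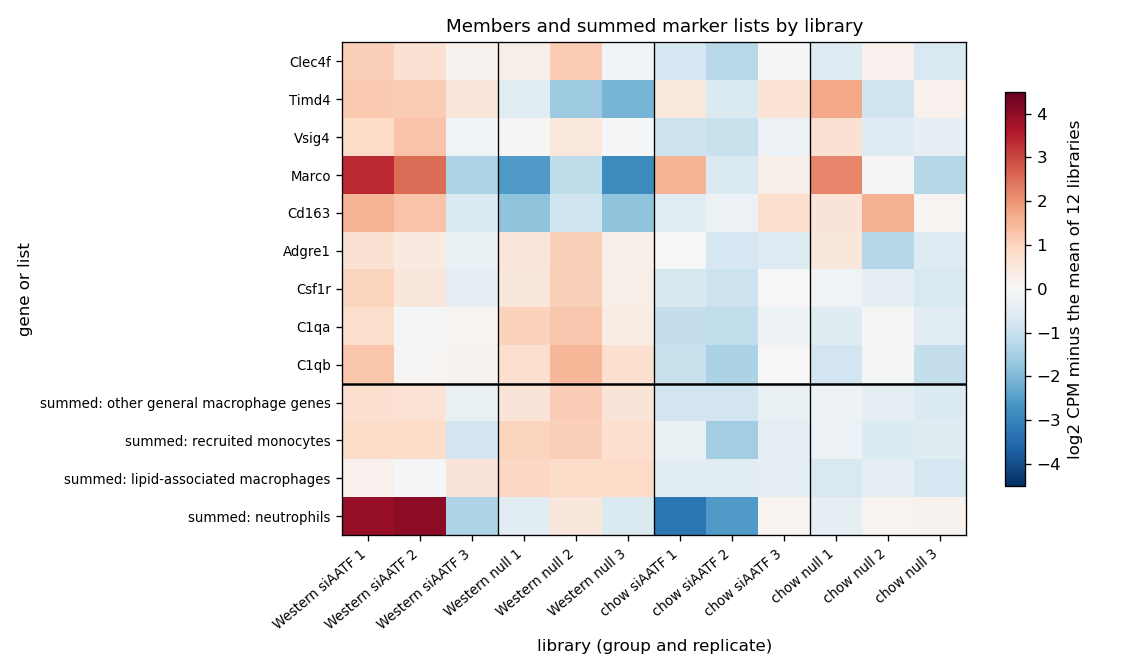
Log2 CPM of the 9 counted members, and of the summed levels of 4 marker lists, minus the mean over 12 libraries, in each library. Marco and the neutrophil sum are both high in Western siAATF replicates 1 and 2 (Marco 180 and 99.9 CPM, neutrophil genes 156 and 168 CPM) and low in replicate 3 (6.60 and 3.96 CPM). In each chow group the library with the highest Marco level has the lowest neutrophil sum.

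**Figure D5:**
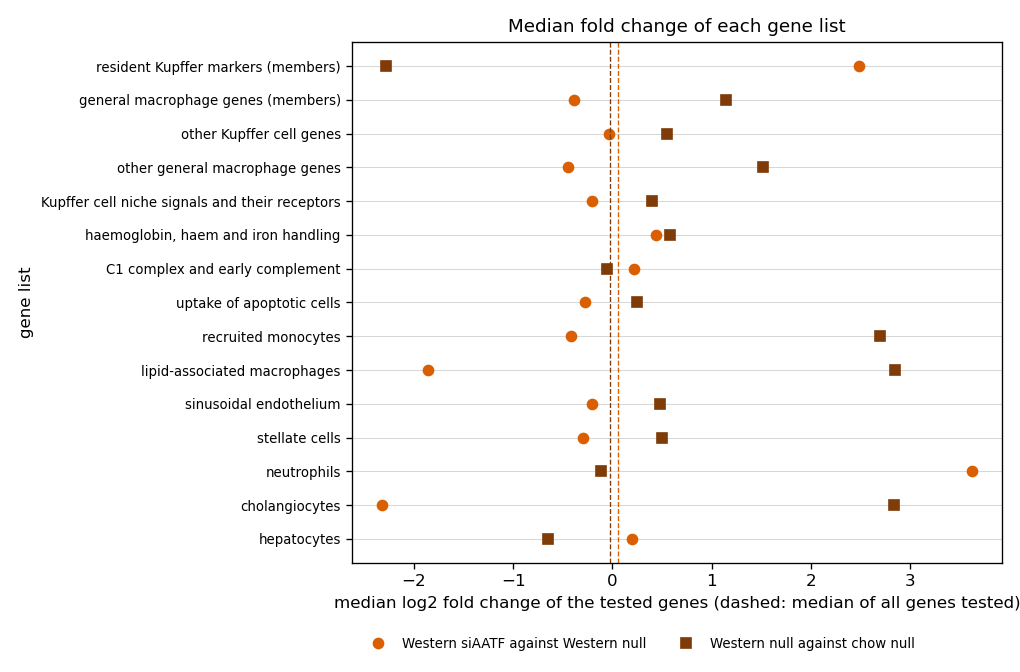
Median log2 fold change of the tested genes of each list in Western siAATF against Western null and in Western null against chow null libraries, 2 comparisons that share the Western null libraries; dashed lines are the medians over all genes tested (0.06 and -0.03). The 5 resident Kupffer cell markers have medians of 2.48 and -2.29, and the other Kupffer cell genes -0.04 and 0.55. The resident medians are the values of Timd4 and Cd163, and the 5 markers are split: Clec4f has 0.17 and 0.84, and Vsig4 0.65 and 0.10.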

How the data were processed

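Per the labels, whole-liver RNA gave 12 SMART-Seq libraries in 4 groups of 3. The authors deposited whole-number read counts per gene, made with STAR 2.7.11 and featureCounts 2.0.1 on GRCm39, per the submitters' processing notes; how strand was treated is not given in the sources used here. Gene lengths in the file equal whole spans, so intronic reads were counted, and genes inside another gene are listed at 0. From the counts, edgeR 4.0.16 in R 4.3.3 gave CPM (TMM) and the quasi-likelihood test (filterByExpr, robust, all libraries in 1 model of group means with 8 residual degrees of freedom); p-values were Benjamini-Hochberg adjusted over 11934 genes, with a threshold of 0.05. DESeq2 1.42.0 and limma 3.58.1 voom were alternatives among 23 per comparison (22 for the interaction). The number of calls by DESeq2 over all genes is given here only for the comparison on chow. The test was checked on simulated counts. All members are named, with up to 4 genes per list (15 lists) by unadjusted p, and 3 like-patterned genes per member by Pearson r of log2 CPM (prior count 2, mean of at least 5 CPM). Cd5l, Clec1b, Csf1, Ccl5, Gas6, Ly6g, Mmp8 and Retnlg were named in addition, after their values were seen. Members and lists were chosen with earlier results of these data known. Intervals cover 95% and floors cover counting error only, since reads carry no molecular identifiers. No replicate pair agreed within counting noise (the lowest chi-square divided by its degrees of freedom was 7.74), so each library was counted once.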

Additional observations from a re-analysis of the deposited data

How the results depend on the processing

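Counts of called members in Western null against chow null libraries (5) fell to 0 without the libraries with over 25% of counts from 18S RNA and ran from 1 to 5 when 1 library was left out; it was 6 with no low-count filter (Marco called, edgeR adjusted p = 2.88e-17), and 4 with thinned counts (Timd4 lost, 0.059) or non-robust dispersion (Csf1r lost, 0.052). In Western siAATF against Western null libraries (1) the count was 3 with DESeq2 and 3 with no low-count filter, and 0 with the 18S gene left out, upper-quartile factors, limma-voom, libraries over 25% 18S RNA left out, non-robust dispersion, thinned counts, or the compared groups alone; leaving out 1 library gave 0 to 2. In Western siAATF against chow siAATF libraries (0) it was 3 with DESeq2, 6 with no filter, 1 with thinned counts and 0 to 4 leaving out 1 library, and for the interaction (0) it was 1 with DESeq2, 3 with no filter and 0 to 2 leaving out 1 library. On chow it was 0 under all 23 alternatives. The cause of these moves was not tested, except that leaving out libraries or groups leaves fewer samples. Over all genes, calls in Western null against chow null libraries numbered 1577 (658 to 2250 over the alternatives), in Western siAATF against Western null 104 (26 to 572), on chow 0 (0 to 33), in Western siAATF against chow siAATF 177 (17 to 836) and for the interaction 23 (2 to 331).

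The Clec4f ratio difference in Western null against chow null libraries was -0.892 with C1qb alone as denominator (main -0.48) and the Cd163 one -3.95 (main -3.54); Clec4f in Western siAATF against chow siAATF libraries gave 0.656 with Adgre1 alone and 0.0554 with C1qb alone (main 0.28). Small differences changed sign. In chow siAATF against chow null libraries, Clec4f was 0.183, Marco 1.16, Cd163 0.233, Csf1r 0.302 and C1qb 0.556 without the libraries over 25% 18S RNA, and Csf1r 0.171 and C1qb 0.0441 with thinned counts. Leaving out 1 library there gave Csf1r -0.388 to 0.111, C1qb -0.532 to 0.288, Marco -1.18 to 1.25, Timd4 -0.949 to 0.312, Adgre1 -0.475 to 0.399 and Clec4f -0.664 to 0.0199. It gave Vsig4 -0.108 to 0.613 in Western null against chow null libraries, Clec4f -0.0754 to 0.605 and Csf1r -0.512 to 0.105 in Western siAATF against Western null libraries, and C1qa -0.436 to 0.177, Adgre1 -0.72 to 0.157, Csf1r -0.424 to 0.208 and C1qb -0.904 to 0.0705 for the interaction.

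With the replicate number as a block, the Western siAATF against Western null count of called members was 0 (Cd163, edgeR adjusted p = 0.110), the Western null against chow null count was 4 (Csf1r lost, 1.07, edgeR adjusted p = 0.0717), and Marco gave 0.15 on chow. Of 18 same-numbered pairs of libraries 1 had deviations correlated above 0.1, and 0 of 12 libraries correlated best with their own number, so the numbers do not pair the samples.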
